A study of Mus musculus with 6 samples.

Results

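The genes described here are the mouse zinc finger genes whose symbol is Zfp followed by a number. They were measured by RNA sequencing in 3 libraries labelled Setd1a knockout and 3 libraries labelled wild-type control, numbered 1 to 3 in each group. All 6 came from one cultured line of mouse undifferentiated pleomorphic sarcoma (UPS), a soft-tissue tumour, described as metastatic and grown in serum-containing medium. The sample titles carry one tag on every knockout library and another, AAV2, on every control library. The labels do not explain them, and what they mark cannot be told apart from the genotype. Setd1a encodes a histone methyltransferase of active promoters. The comparison asked how expression of these genes differed between the knockout and the control libraries. Whether the libraries of a group came from separate cultures, or the knockout line from a single clone, is not stated. The p-values therefore reflect the scatter among these 6 libraries alone, which may be technical. Of the 55471 genes in the deposited count table, 374 carried such a symbol in the GENCODE M21 annotation. The members are the 208 of them with a mean of at least 5 CPM (counts per 1000000 counts of a library) over the 6 libraries. The limit uses the level over all libraries and not the difference between the groups. Just inside it were Zfp595 at 5.12 CPM and Zfp229 at 5.15 CPM, and just outside it were Zfp182 at 4.98 CPM and Zfp606 at 4.89 CPM. Of the 166 genes under the limit, 97 had enough counts to be tested and 23 had no count in any library. Zfp37, at 3.68 CPM, lies under the limit and is reported beside the set, together with the member Zfp213; both were picked because earlier results of these data showed a difference.

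Zinc finger proteins of this kind bind DNA through arrays of small domains, each folded around a zinc ion, and successive fingers read successive bases. Many mammalian members also carry a KRAB domain, which recruits the corepressor Trim28 (KAP1) and, through it, the histone methyltransferase Setdb1 and heterochromatin proteins. KRAB zinc finger proteins are known for silencing retroelements and for keeping imprints, and their genes lie in clusters that arose by duplication. Other Zfp-numbered genes have no KRAB domain and act as transcriptional activators, RNA-binding proteins, ubiquitin ligases or ribosome-associated factors, so the symbol names a domain and not a single pathway.

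Library totals lay between 17749533 and 18272622 counts, and 13044 genes had enough counts to be tested. The Setd1a transcript had 53.3, 68.5 and 57.6 CPM in knockout replicates 1, 2 and 3, against 71.1, 73.8 and 72.7 CPM in the control replicates. All knockout values were under all control values (exact two-sided permutation p = 0.1, which no split of 3 and 3 can undercut). On the log2 scale the difference was -0.30 ± 0.12 (SE; edgeR adjusted p = 0.426). Exons of another gene, Gm49388, overlap 52.3% of its exonic bases, so its counts are uncertain. The labels do not say which part of the gene was targeted. All 10 mesenchymal markers looked at had at least 1 CPM. Of 8 macrophage markers 1 did, with Adgre1 and Tyrobp at 0, and of 8 endothelial markers 1 did, with Cldn5 at 0. Of 8 epithelial markers 2 did. The macrophage markers summed to between 8.38 and 15.1 CPM in the knockout libraries and between 7.42 and 8.81 CPM in the controls, ranges that overlap. The endothelial markers summed to between 2.99 and 4.85 CPM in the knockouts and between 1.44 and 2.83 CPM in the controls, which do not overlap. The mesenchymal markers summed to between 7618 and 8827 CPM in the knockouts and between 8683 and 9205 CPM in the controls, and the epithelial markers to between 46.3 and 88.6 CPM in the knockouts and between 50.9 and 85.3 CPM in the controls. The part of these differences in the results was not tested.

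The members took between 0.566% and 0.647% of the counts of a library. Protein reading frames were annotated for 207 of the 208, the exception being Zfp469, which is annotated as a long noncoding RNA. A profile of the KRAB domain matched 99 of the 207, and a profile of the SCAN domain, a dimerization domain, matched 11, of which 6 also had KRAB. In 102 members at least 10 zinc fingers were found, and the most in a single protein was 36. KRAB members had a median of 12 fingers and 108 members without KRAB a median of 7. The members spread over 20 chromosomes, with 53 on chromosome 7 and 25 on chromosome 17.

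Between genes, levels were compared per kilobase of exon. The median over the members was 3.56 CPM per kilobase, against 9.02 CPM per kilobase over all tested genes at 5 CPM or more. KRAB members stood at a median of 2.50 CPM per kilobase and members without KRAB at 5.58 CPM per kilobase. The highest levels were those of members without KRAB. Zfp207, a microtubule- and Bub3-binding protein of the mitotic spindle, had 53.7 CPM per kilobase. Zfp106, an RNA-binding protein needed by motor neurons, had 40.6 CPM per kilobase, although 26.1% of its exonic bases overlap other genes. Zfp598, a ubiquitin ligase that acts on collided ribosomes, had 34.8 CPM per kilobase, and the small protein gene Zfp706 had 34.2 CPM per kilobase. Among KRAB members the highest mean counts were those of Zfp445 (52.4 CPM), Zfp777 (41.8 CPM) and Zfp266 (40.4 CPM).

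Between knockout and control libraries the set as a whole differed little. The median log2 change over the 208 members was -0.03, with quartiles at -0.15 and 0.09, against 0.00 over all 13044 genes tested and -0.01 over the 9893 tested genes at 5 CPM or more. Of the members, 84 lay above 0 and 124 below, which makes 40.4% above 0, against 46.8% of the tested genes at 5 CPM or more. This tilt rested on the libraries used: without control replicate 1 the share above 0 was 54.3% and the median 0.02, and without control replicate 3 they were 30.3% and -0.09. A log2 change beyond 0.5 in either direction was found for 5 members, or 2.40%, against 3.79% of the tested genes at 5 CPM or more.

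Without pairing of the libraries, edgeR's quasi-likelihood test called 0 members higher and 0 lower at an adjusted p under 0.05, as it called 0% of all genes in either direction. The smallest adjusted p of a member was 0.206. Before adjustment, 3 members were higher and 18 lower at p under 0.05, or 1.44% and 8.65% of the members, against 5.5% and 4.51% of all genes tested. For the tested genes at 5 CPM or more these shares were 3.97% and 5.03%. Deviations from the group means went together in libraries of the same replicate number. The correlations were 0.15, 0.46 and 0.38 in pairs 1, 2 and 3, so weak in pair 1. The labels state no pairing, and the paired calls rest on a block chosen from these same data. With the number as a block, the same edgeR test called 1 member higher and 3 lower. It called 1.43% of all genes higher and 0.851% lower. Those shares are of the same order as 1 and 3 of 208, so the counts are no result about the set. Before adjustment the paired test had 8 members higher and 25 lower at p under 0.05, against 9.94% and 9.62% of all genes. Of the 9893 tested genes at 5 CPM or more it had 840 higher and 1114 lower. DESeq2 without pairing called 0 members higher and 1 lower, Zfp213, where it called 0.636% of all genes higher and 0.299% lower. In 5 members every knockout library lay above every control library, against 8.99% of all genes tested, and in 30 members every knockout library lay below, against 6.02%. These 30 make up 14.4% of the members and the 5 make up 2.40%. Among all tested genes at 5 CPM or more the shares were 7.54% above and 6.58% below. These counts describe the set and were not tested.

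**Figure D1:**
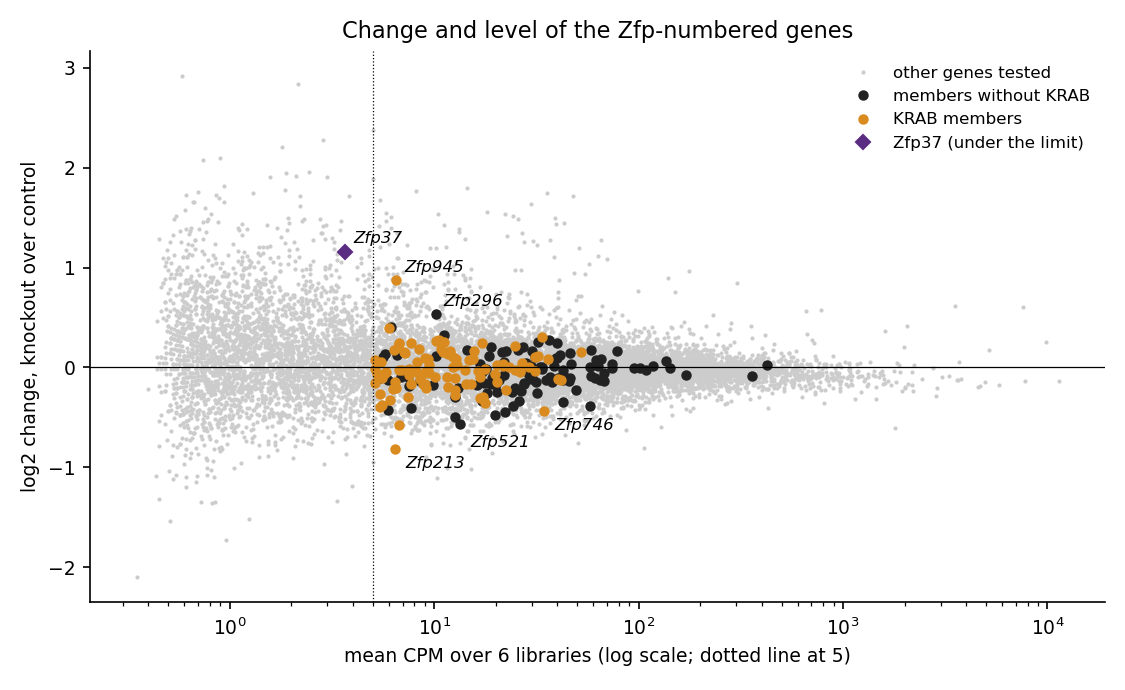
Log2 change, knockout over control (vertical axis), against the mean CPM over 6 libraries (horizontal log axis) for all 13044 genes tested; coloured points are the 99 KRAB members and the 108 members without KRAB, and the diamond is Zfp37. Most members lie close to 0, with Zfp945 at 0.87 and Zfp213 at -0.82 as the outermost members.

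Zfp37 encodes a KRAB zinc finger protein with 12 fingers in its annotated reading frame (ENSMUSG00000028389, GRCm38 chromosome 4, 62189540 to 62231047, minus strand). It had 5.18, 4.32 and 5.86 CPM in knockout replicates 1, 2 and 3, against 2.27, 1.97 and 2.496 CPM in the controls. The groups did not overlap, and every knockout library was above every control. Its mean was 5.12 ± 0.773 CPM in the knockouts and 2.25 ± 0.264 CPM in the controls (SD, n = 3 each). In edgeR's unpaired test its log2 change of 1.16 ± 0.22 (SE) had an adjusted p of 0.157; in the paired test 1.16 ± 0.17 had an adjusted p of 0.0226. Since it was picked for this difference, these values describe it and are no separate evidence. Of the 97 tested Zfp-numbered genes under the limit, the paired test called only Zfp37, and higher. That test called 1.43% of all genes higher and 0.851% lower, so the count is no result about those genes. No stretch of 50 bases of the longest Zfp37 transcript recurs in a transcript of another gene.

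Zfp213, a member whose protein combines a SCAN domain, a KRAB domain and 5 fingers (ENSMUSG00000071256, GRCm38 chromosome 17, 23556767 to 23564238, minus strand), ran the other way. It had 3.97, 4.26 and 5.86 CPM in knockout replicates 1, 2 and 3, against 7.70, 7.66 and 8.98 CPM in the controls. All knockout libraries lay below all controls, with means of 4.70 ± 1.02 CPM in the knockouts and 8.11 ± 0.753 CPM in the controls (SD, n = 3 each). The log2 change was -0.82 ± 0.20 (SE; edgeR adjusted p = 0.206 unpaired) and -0.83 ± 0.14 in the paired test (adjusted p = 0.0291). Of its exonic bases, 56.6% overlap exons of other genes, most of all Gm26695 on the opposite strand. The strand setting of the counting is not given in the sources used here, so reads of these genes cannot be told apart and its counts are uncertain.

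Zfp945 was the member the paired test called higher. It is a KRAB gene with 18 fingers (ENSMUSG00000059142, GRCm38 chromosome 17, 22846697 to 22867134, minus strand). It had 10.1, 7.03 and 8.23 CPM in knockout replicates 1, 2 and 3, against 5.98, 4.54 and 3.11 CPM in the controls. The lowest knockout library was above the highest control, but the controls themselves spread widely. The log2 change was 0.87 ± 0.25 (SE; edgeR adjusted p = 0.297) and 0.89 ± 0.17 in the paired test (adjusted p = 0.0363). Of the 50-base stretches of its longest transcript, 0.913% recur in other genes, the closest being its neighbour Zfp942.

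Zfp746 and Zfp521 were the other 2 members called lower by the paired test. Zfp746, also known as Paris, encodes a KRAB protein that is degraded through parkin and represses the metabolic coactivator gene Ppargc1a (ENSMUSG00000057691, GRCm38 chromosome 6, 48062395 to 48086593, minus strand). It had 28.5, 29.1 and 30.9 CPM in knockout replicates 1, 2 and 3, against 38.3, 39.3 and 40.1 CPM in the controls, 2 narrow groups that stood well apart. The log2 change was -0.44 ± 0.11 (SE; edgeR adjusted p = 0.208) and -0.44 ± 0.09 in the paired test (adjusted p = 0.0423). Zfp521, a 27-finger protein without KRAB that is known as a regulator of haematopoietic and mesenchymal progenitors (ENSMUSG00000024420), had 12.9, 11.1 and 8.51 CPM in knockout replicates 1, 2 and 3. The control libraries had 17.2, 15.6 and 14.6 CPM, so the groups did not overlap. The log2 change was -0.57 ± 0.17 (SE; edgeR adjusted p = 0.328) and -0.58 ± 0.12 in the paired test (adjusted p = 0.0436). The calls depended on which pairs entered. Leaving out pair 3 left 0 calls among the members, leaving out pair 2 left 1 higher and 0 lower, and leaving out pair 1 gave 5 higher and 3 lower. Such fits keep few libraries from which to estimate scatter. The shares of all genes called in them are not given here, so these counts are no result about the members.

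The promoters of Zfp37 and of 3 of the members named so far are shown because they differ in the density of the dinucleotide CG, which is the feature of the promoters to which Setd1a complexes are recruited through their CG-binding subunit. Each runs 5′ to 3′ on the gene's strand, from 250 bases before to 50 bases after the RefSeq start (GRCm38.p6; Zfp521 is not shown), with each CG in capitals. Zfp37 lies at chr4:62208497-62208796, Zfp213 at chr17:23564177-23564476, Zfp945 at chr17:22867085-22867384 and Zfp746 at chr6:48086544-48086843, all on the minus strand. The Zfp37 stretch lies inside the GENCODE gene, whose outermost start on this strand is at 62231047. Which start was used in these cells was not tested.
Zfp37: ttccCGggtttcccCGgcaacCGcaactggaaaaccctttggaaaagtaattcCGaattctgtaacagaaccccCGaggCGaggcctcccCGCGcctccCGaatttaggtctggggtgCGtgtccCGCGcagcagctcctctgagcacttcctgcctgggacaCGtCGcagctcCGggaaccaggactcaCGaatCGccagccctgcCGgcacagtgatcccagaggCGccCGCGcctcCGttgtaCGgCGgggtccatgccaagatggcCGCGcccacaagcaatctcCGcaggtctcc
Zfp213: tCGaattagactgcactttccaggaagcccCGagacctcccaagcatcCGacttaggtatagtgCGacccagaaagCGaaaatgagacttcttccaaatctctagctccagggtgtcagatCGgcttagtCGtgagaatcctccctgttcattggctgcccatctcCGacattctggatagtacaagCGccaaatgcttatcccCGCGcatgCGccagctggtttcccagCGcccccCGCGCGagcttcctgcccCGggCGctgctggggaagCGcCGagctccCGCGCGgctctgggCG
Zfp945: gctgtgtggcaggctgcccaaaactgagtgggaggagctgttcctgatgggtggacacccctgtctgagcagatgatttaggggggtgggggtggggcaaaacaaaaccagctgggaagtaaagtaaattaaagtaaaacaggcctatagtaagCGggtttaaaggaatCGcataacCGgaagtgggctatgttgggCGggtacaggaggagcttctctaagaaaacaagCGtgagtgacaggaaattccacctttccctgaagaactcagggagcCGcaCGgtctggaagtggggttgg
Zfp746: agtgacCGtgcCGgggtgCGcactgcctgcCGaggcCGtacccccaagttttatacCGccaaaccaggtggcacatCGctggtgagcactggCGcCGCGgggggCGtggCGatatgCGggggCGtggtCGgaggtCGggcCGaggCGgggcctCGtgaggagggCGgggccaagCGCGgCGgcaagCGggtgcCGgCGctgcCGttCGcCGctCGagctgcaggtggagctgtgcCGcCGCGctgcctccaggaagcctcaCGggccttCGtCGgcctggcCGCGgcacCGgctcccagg

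The promoter of Zfp37 held 27 CG, that of Zfp213 held 24 CG, that of Zfp945 held 7 CG and that of Zfp746 held 39 CG. Whether CG density had a part in the changes of these genes was not tested. RefSeq promoters of this length matched 169 of the 208 members by symbol. Their median was 16 CG, against 21 CG for the matched genes among all tested and 7 CG for all RefSeq promoters. The 87 matched KRAB members had a median of 12 CG and the 82 matched members without KRAB a median of 20 CG. At least 15 CG were found in 31.0% of the KRAB promoters and in 79.3% of the promoters without KRAB. The motif TATAAA, on either strand, was present in 14 member promoters or 8.28%, Zfp746 among them, against 6.72% of the matched tested genes and 14.2% of all RefSeq promoters.

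**Figure D2:**
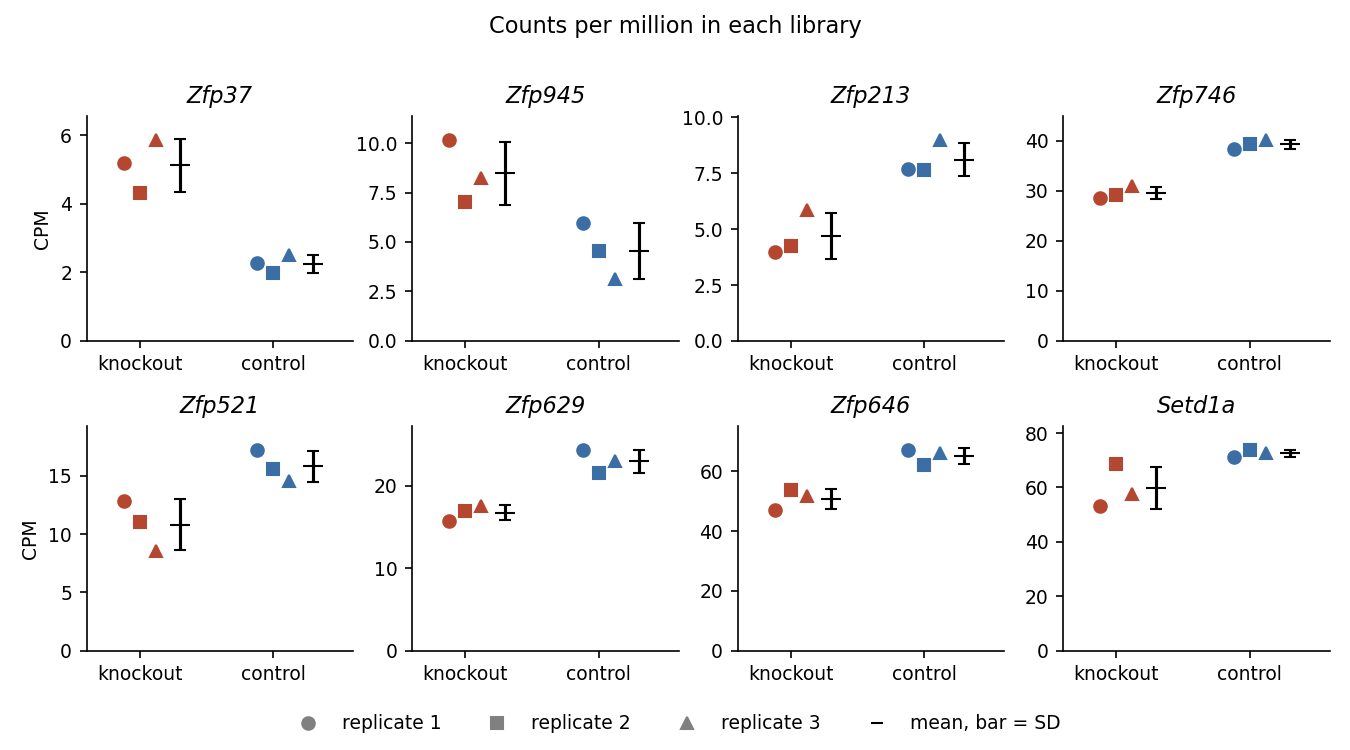
CPM (vertical axes, from 0) of Zfp37, 6 members and Setd1a in each library, with knockout left and control right; symbols mark the replicate number, and the dash with its bar is the mean with the SD of 3 libraries. The groups do not overlap in any panel, and Zfp746 has 28.5 to 30.9 CPM in the knockouts against 38.3 to 40.1 CPM in the controls.

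Among the other members with the smallest unadjusted p, Zfp629, Zfp646 and Zfp523 were lower in every knockout library and did not pass the adjusted threshold in edgeR's unpaired or paired test. Some other paired fits did call them: Zfp629 with DESeq2 size factors (adjusted p = 0.0495) and limma-voom (adjusted p = 0.0471), Zfp646 with DESeq2 (adjusted p = 0.0321), and all 3 with a correction for GC. Zfp629, a protein of 19 fingers, had 15.7, 17.0 and 17.6 CPM in the knockouts, against 24.4, 21.5 and 23.0 CPM in the controls (log2 change -0.48 ± 0.12, SE; edgeR adjusted p = 0.222 unpaired and 0.0515 paired). Zfp646, with 27 fingers, had 47.2, 53.6 and 51.6 CPM in the knockouts, against 67.1, 62.1 and 66.1 CPM in the controls (log2 change -0.38 ± 0.10, SE; edgeR adjusted p = 0.251 unpaired and 0.0565 paired). Zfp523, the mouse counterpart of the transcription factor gene ZNF76, had 16.4, 19.8 and 20.96 CPM in the knockouts, against 26.1, 23.2 and 27.1 CPM in the controls (log2 change -0.45 ± 0.13, SE; edgeR adjusted p = 0.320 unpaired and 0.0685 paired). On the other side, Zfp296, Zfp346, Zfp871, Zfp422 and Zfp820 had log2 changes of 0.53, 0.27, 0.30, 0.32 and 0.40, with adjusted p-values between 0.459 and 0.568 in edgeR's unpaired test. Of these, Zfp346, which encodes a double-stranded RNA-binding protein, had 39.5, 43.6 and 36.9 CPM in the knockouts, against 31.1, 33.9 and 32.8 CPM in the controls. Zfp422 also had its groups apart, whereas those of Zfp296, Zfp871 and Zfp820 overlapped.

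The members were also grouped by what the proteins are known to do. The lists were chosen with earlier results of these data known. The silencers of retroelements or imprinted genes numbered 8, of which 6 were members; Zfp819 had a mean of 0.194 CPM and Zfp708, all of whose 50-base transcript stretches recur in Gm28557, no count. None of the 6 was called in either edgeR test, 5 lay above 0 and the median log2 change was 0.07. Zfp57 and Zfp445, which maintain genomic imprints, gave close values in both groups. Zfp57 had 17.9, 23.2 and 25.4 CPM in the knockouts, against 19.4, 21.6 and 22.6 CPM in the controls. Zfp445 had 57.7, 54.5 and 54.4 CPM in the knockouts, against 59.3, 46.4 and 42.0 CPM in the controls, so control replicate 1 was the highest of all 6 libraries. Zfp568, which represses a placental transcript of Igf2, averaged 32.4 ± 3.96 CPM in the knockouts and 29.6 ± 1.70 CPM in the controls (SD, n = 3 each).

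Of 23 transcription regulators without KRAB, 21 were members, and Zfp423 and the stem cell gene Zfp42 lay at or near 0. The paired edgeR test called 0 of the 21 higher and 1 lower, Zfp521, and 8 of the 21 lay above 0, with a median log2 change of -0.01. Of all genes that test called 1.43% higher and 0.851% lower. In 5 of the 21, or 23.8%, every knockout library lay below the controls, against 6.02% of all genes, and in 0 every knockout library lay above, against 8.99%; this was not tested. Zfp384, a transcription factor gene fused in some leukaemias, averaged 143.3 ± 14.8 CPM in the knockouts and 141.6 ± 5.35 CPM in the controls. Zfp148, which encodes the factor ZBP-89, averaged 102 ± 8.56 CPM in the knockouts and 101 ± 17.5 CPM in the controls, and Zfp131 averaged 74.5 ± 6.39 CPM in the knockouts and 73.6 ± 15.2 CPM in the controls (SD, n = 3 each). All 12 genes of RNA, ribosome and protein turnover were members; 0 were called in either edgeR test, 8 lay above 0 and their median log2 change was 0.05. Zfp207 averaged 350 ± 26.2 CPM in the knockouts and 365 ± 12.3 CPM in the controls, and Zfp598 averaged 139.9 ± 14.6 CPM in the knockouts and 131 ± 5.44 CPM in the controls (SD, n = 3 each).

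The 99 KRAB members had a median log2 change of -0.03, with 43 above 0, and 1 higher and 2 lower in the paired test. The 108 members without KRAB had a median of -0.06, with 40 above 0, and 0 higher and 1 lower. The paired test called 1.43% of all genes higher and 0.851% lower. Those shares are of the same order, so these calls are no result about either class. Of the members whose knockout libraries all lay below the controls, 8 had KRAB and 22 did not, or 8.08% and 20.4% of each class, against 6.58% of all tested genes at 5 CPM or more. Those with all knockout libraries above the controls were 1 with KRAB and 4 without, or 1.01% and 3.70%, against 7.54% of those genes. KRAB members had a median of 10.5 CPM and a median SE of 0.179, against 29.7 CPM and 0.134 for members without KRAB. The 22 include Zfp768, Zfp629, Zfp668 and Zfp646, which lie near Setd1a on chromosome 7. The difference between the classes was not tested. The corepressor machinery that KRAB proteins use was present and not called. All 21 genes of that list were tested, 0 passed either edgeR test, and their median log2 change was 0.00. Trim28 had 545, 607 and 452 CPM in the knockouts, against 545, 643 and 554 CPM in the controls (log2 change -0.14 ± 0.14, SE; edgeR adjusted p = 0.844). Setdb1 averaged 94.8 ± 3.31 CPM in the knockouts and 99.8 ± 5.76 CPM in the controls (SD, n = 3 each; log2 change -0.10 ± 0.10, SE; edgeR adjusted p = 0.851).

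**Figure D3:**
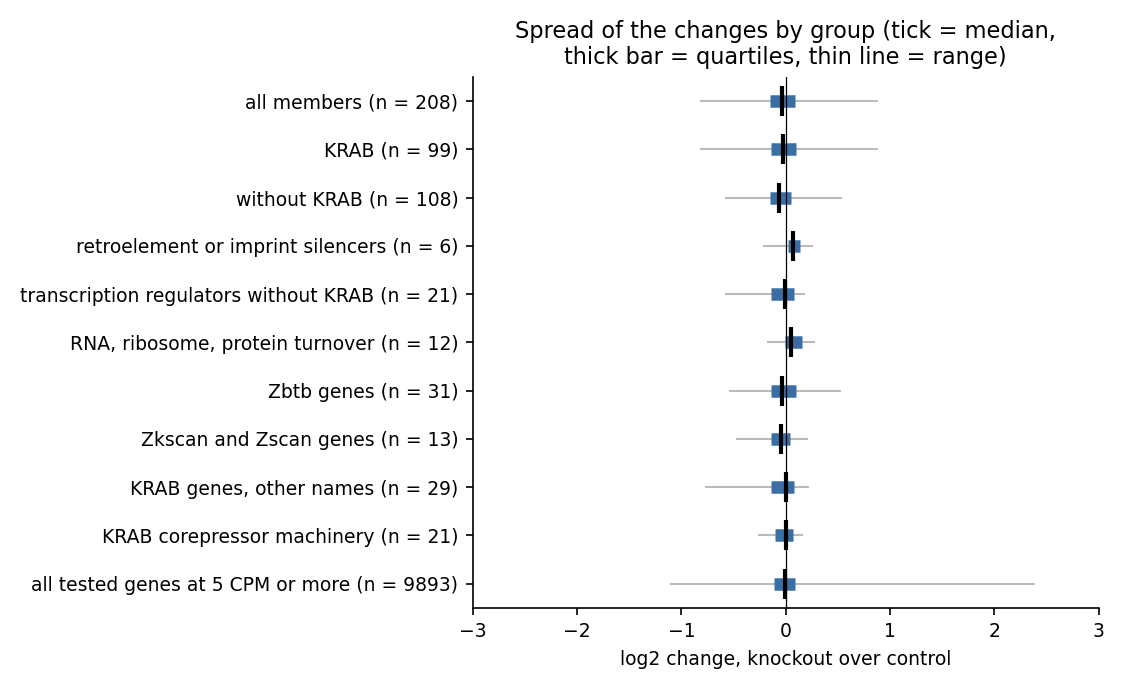
Log2 changes, knockout over control (horizontal axis), for the members, their classes, related gene families and all tested genes at 5 CPM or more; ticks are medians, thick bars quartiles and thin lines the full range. The medians of all groups shown lie between -0.06 and 0.07, and the quartiles lie on both sides of 0 for every group shown except the 6 silencers.

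Levels of KRAB members differed between libraries of the same group. Relative to each gene's mean log2 level over the 6 libraries, the median KRAB member stood at 0.10, -0.07 and 0.03 in knockout replicates 1, 2 and 3, against 0.19, -0.01 and -0.15 in the control replicates. In control replicate 1, 89.9% of KRAB members were above their own mean, and in control replicate 3, 25.3% were. For members without KRAB the medians lay at 0.03, 0.01 and -0.05 in the knockouts, against 0.07, 0.02 and 0.00 in the controls. Within pairs 1, 2 and 3, the knockout-over-control log2 ratio had medians of -0.12, -0.06 and 0.20 over the KRAB members and of -0.07, 0.00 and -0.05 over the members without KRAB. The 29 KRAB genes at 5 CPM or more with other kinds of names gave -0.14, -0.03 and 0.30 in the 3 pairs.

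The GC content of the transcripts moved with this pattern. Over the 208 members, the rank correlation between transcript GC and a library's deviation was -0.40, 0.17 and -0.38 in the knockout replicates, against -0.53, 0.27 and 0.62 in the controls. Over all tested genes with a transcript sequence it was -0.10, 0.18 and -0.16 in the knockouts, against -0.32, 0.12 and 0.28 in the controls. These are correlations across genes that share libraries, given as descriptions. The median transcript GC was 42.5% for KRAB members and 50.1% for members without KRAB. With a correction for GC in each library, the median log2 change was -0.03 for KRAB members and -0.06 for members without KRAB in the unpaired fit, the same as without it to 2 decimals. Over all 208 members the correction moved the median from -0.03 to -0.05 in that fit. The paired test with that correction called 2 members higher and 8 lower, where it called 3.13% of all genes higher and 2.87% lower. The 4 members called before were among these 10, joined by Zfp296 among the higher and by Zfp629, Zfp646, Zfp639, Zfp523 and Zfp113 among the lower.

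**Figure D4:**
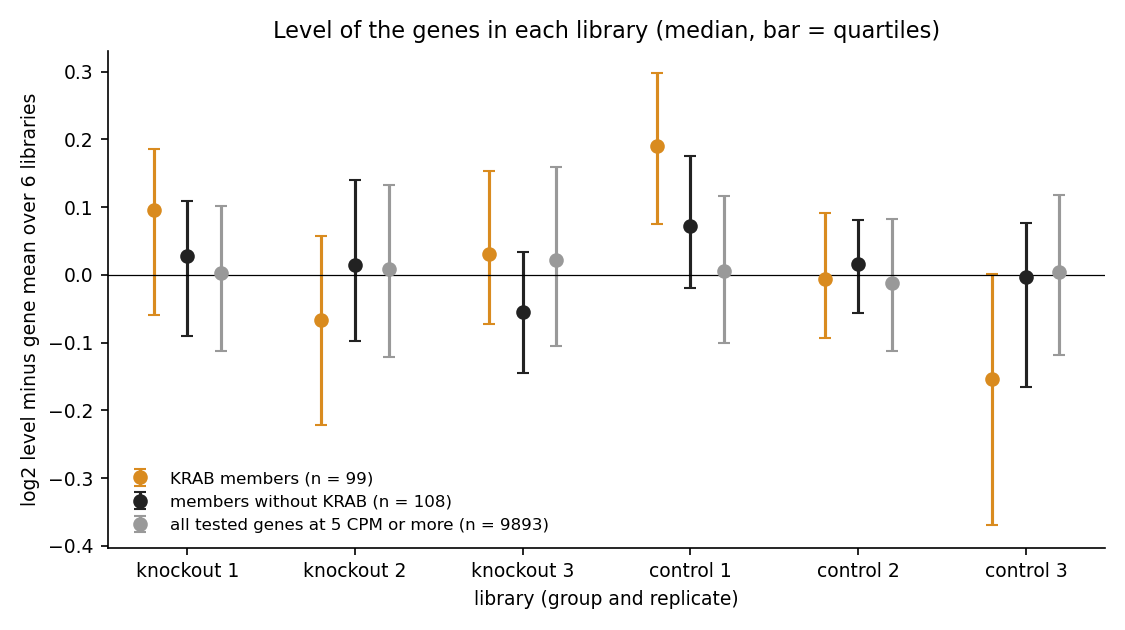
Level of each gene minus its mean over the 6 libraries on the log2 scale (vertical axis), shown as the median with quartiles for 99 KRAB members, 108 members without KRAB and 9893 tested genes at 5 CPM or more, by library. KRAB members have their highest median in control replicate 1, at 0.19, and their lowest in control replicate 3, at -0.15.

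By position, members with less than 500 kb to the next one formed 7 runs of at least 5 genes. The longest was on chromosome 17 (21008903 to 22867134), with 13 KRAB members from Zfp160 to Zfp945. Its median log2 change was 0.15 with 10 of 13 above 0, but the pairs differed, with medians of -0.10, 0.02 and 0.55. Without control replicate 3 the median was -0.04 with 6 above 0, and without control replicate 1 it was 0.33 with 13 above 0. With GC correction in the unpaired fit the median was 0.11 with 9 above 0. A run of 10 members on chromosome 7 (29768552 to 30169750), among them Zfp568 and Zfp260, had a median of -0.02 with 5 above 0.

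A run of 9 members on chromosome 7 (127233061 to 127885996) surrounds Setd1a itself, and all 9 had log2 changes below 0. In order along the chromosome they were Zfp553, Zfp771, Zfp768, Zfp747, Zfp764, Zfp689 and Zfp629 on one side of Setd1a and Zfp668 and Zfp646 on the other. Their median log2 change was -0.26, and the median ratio was -0.31, -0.18 and -0.28 in pairs 1, 2 and 3. All 9 stayed below 0 in each of the 6 fits that left out 1 library, with medians between -0.30 and -0.23, and in the fit with GC correction, at -0.25. In Zfp768, Zfp747, Zfp629, Zfp668 and Zfp646 all knockout values were below all control values. Among the other tested genes, the same held for 6 of 29 within 500 kb of Setd1a, 4 of 27 between 500 and 1000 kb and 6.02% of all genes, and it held for 1 of the 44 members more than 5000 kb away on the same chromosome. Zfp629 and Zfp646, described above, had the largest changes per error of the 9. Zfp668, whose exons overlap those of Zfp646 on the opposite strand, had 18.2, 20.9 and 17.2 CPM in the knockouts, against 22.6, 21.2 and 22.0 CPM in the controls. Zfp747, a KRAB gene with 36.9% of its 50-base stretches shared with 9130019O22Rik, had 16.0, 15 and 14.3 CPM in the knockouts, against 19.1, 18.7 and 17.4 CPM in the controls. Zfp764, another KRAB gene of the run, is also among the 11 members with more than 20% of these stretches shared. None of the 9 passed the adjusted threshold in the unpaired or paired edgeR test with TMM scaling, and Zfp629 and Zfp646 passed it there with pairing and GC correction (adjusted p = 0.0283 and 0.0270). Other genes nearby lay on both sides of 0. Inside the span of the run, 13 of 23 other tested genes, Setd1a among them, lay below 0, with a median of -0.11. Within 500 kb of Setd1a, 7 of 7 members lay below 0, with a median of -0.31, against 15 of 29 other tested genes, with a median of -0.03; the difference was not tested. These 29 include Zfp688, at 4.13 CPM under the limit for members, with a log2 change of -0.57 ± 0.25 (SE; edgeR adjusted p = 0.493). They also include E430018J23Rik, a KRAB gene with another kind of name, so the others are not all unrelated to the members. The paired test called 2 of the 29 lower, Bckdk (-0.33, edgeR adjusted p = 0.0478) and E430018J23Rik (-0.77, edgeR adjusted p = 0.0329), and 0 of the 7 members. It called 0.851% of all genes lower. Furthest above 0 among the 29 were Gm39090 (0.76) and Tgfb1i1 (0.70), neither called (paired edgeR adjusted p = 0.229 and 0.0573). Between 500 and 1000 kb, 2 of 2 members and 19 of 27 other genes lay below 0, with medians of -0.11 and -0.10. Of those genes Hirip3 was called lower in the paired test (-0.45, edgeR adjusted p = 0.0329). The 44 members beyond 5000 kb had a median of -0.04. The run was singled out after its values were seen and was not tested as a set. Whether its position beside the targeted gene has a part in its lower level was not tested.

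**Figure D5:**
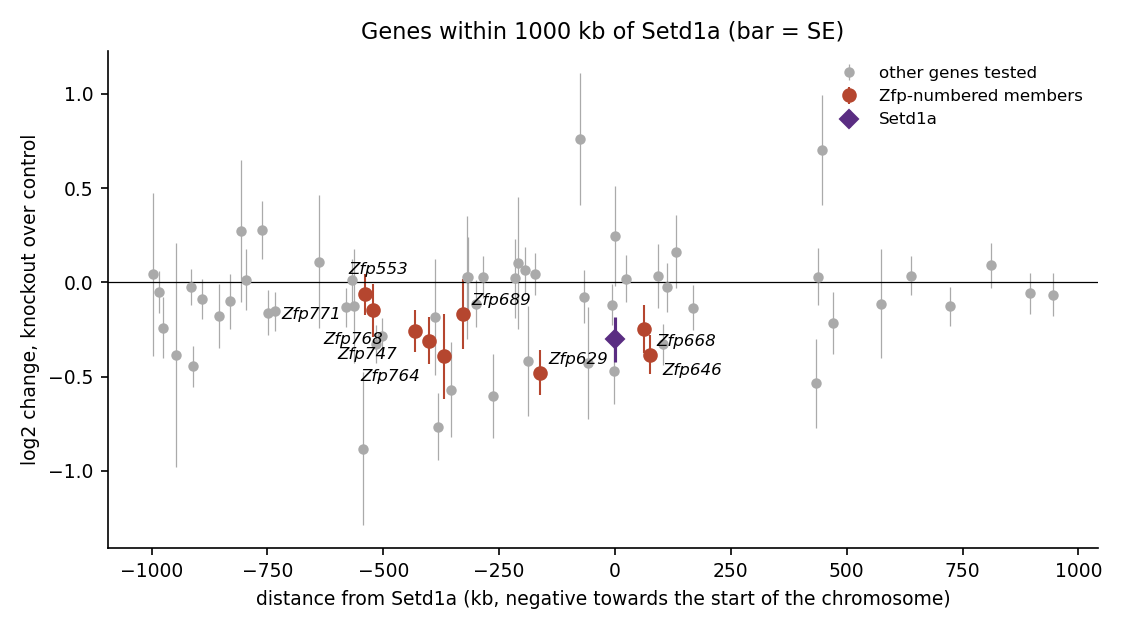
Log2 change with its SE, knockout over control (vertical axis), of Setd1a, 9 members and 56 other tested genes, against the distance from Setd1a in kb (horizontal axis). The 9 members all lie below 0, from -0.06 for Zfp553 to -0.48 for Zfp629, while other genes lie on both sides.

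Reads from sequence shared between duplicated genes may be lost or split in counting, which the sources used here do not describe. In 11 members more than 20% of the 50-base stretches of the longest transcript recur in transcripts of other genes, and in 150 members at most 1% do. The 11 had a median log2 change of -0.21, with 1 above 0, and the 150 had a median of -0.02, with 69 above 0. The pairs disagreed for the 11, with median ratios of -0.25, -0.32 and 0.25. In 10 members more than 20% of the exonic bases overlap exons of another gene, Zfp213 and Zfp106 among them. The 4 members called by the paired test were all among the 150 with little shared transcript sequence.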

How the data were processed

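RNA behind the 6 libraries was isolated with a commercial kit and made into libraries by BGI's procedures, per the labels. The authors deposited 1 table of raw counts per Ensembl gene. STAR, featureCounts, DESeq and the build mm10 are named in the submitters' processing notes; the sources used here give no versions, annotation release, strand setting or rule for reads with several matches. Groups and replicate numbers came from the sample titles.

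Symbols, positions and exons came from GENCODE M21 (GRCm38), which matched 55230 of the 55471 identifiers. CPM used the column total. Library totals were 17749533 to 18272622 counts, so counting error is widest near 5 CPM. R 4.3.3 and edgeR 4.0.16 were used: TMM, the low-count filter, the two-sided quasi-likelihood test, and Benjamini-Hochberg adjustment over all 13044 genes with a threshold of 0.05. The SE was derived from the test statistic. The main test had no pairing. Deviations from group means correlated at 0.15, 0.46 and 0.38 for libraries of the same number, all above 0.1, so paired values (the number as a block) stand beside results they change; this pairing comes from the data and not from the labels. For libraries of unlike number the correlations lay between -0.45 and 0.05. Ratios within pairs used a pseudocount of 0.1 CPM. The steps were checked on simulated data.

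Alternatives were DESeq2 1.42.0, its size factors, limma-voom (limma 3.58.1), other filters and limits, each library or pair left out and, added after seeing the data, a GC correction and paired versions of the tools. Members and lists were chosen with earlier results of these data known. KRAB and SCAN domains (HMMER 3.4 profiles), zinc fingers, shared 50-base stretches, promoters and runs were described after the files were seen. Genes named are Zfp37, Zfp213, Setd1a, Trim28, Setdb1, members called in either test, the 6 on each side with the smallest unadjusted p, the 4 highest in CPM and in CPM per kilobase, those next to the limit and the 3 most abundant of each list; all others were named after their values were seen.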

Additional observations from a re-analysis of the deposited data

How the results depend on the processing

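The median log2 change of the members, -0.03, moved by less than the spread between pairs under every alternative run, and the share of members above 0, 40.4%, stayed within 1.5 times. Leaving out 1 library each gave medians between -0.09 and 0.02 and shares between 30.3% and 54.3%; the medians lay on both sides of 0, with the extremes without control replicates 3 and 1. These fits called between 0 and 0 members. DESeq2 called 1 member, Zfp213, lower. With the replicate block 4 members were called, 5 with DESeq2 size factors, 4 with DESeq2, 5 with limma-voom, 10 with GC correction, 8 without replicate 1, 1 without replicate 2, 5 with membership at 1 CPM and 2 with membership at 10 CPM. Of all genes, edgeR with the block called 1.43% higher and 0.851% lower, and 3.13% and 2.87% with GC correction added. For paired fits with other tools, other size factors or a replicate left out, no such share is given here. The counts are therefore no result about the set. Without the block, 0 members were called with DESeq2 size factors, limma-voom, other filters or GC correction.

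Zfp37 had a log2 change of 1.16 (adjusted p = 0.157) and passed the threshold with DESeq2 at 1.16, with no filter on low counts at 1.14, and with the replicate block at 1.16. With the block it also passed without replicate 1 at 1.14, without replicate 2 at 1.20, with DESeq2 size factors at 1.16, with DESeq2 at 1.16, with limma-voom at 1.15 and with GC correction at 1.11. Paired fits that leave out a replicate number keep few libraries from which to estimate scatter, so passing in them adds little. Leaving out 1 library gave 1.07 to 1.27. Zfp213 had -0.82 and passed with DESeq2 at -0.82 and with the block at -0.83; with the block it also passed without replicate 1 at -0.76, with DESeq2 size factors at -0.83, with DESeq2 at -0.83, with limma-voom at -0.82 and with GC correction at -0.81. Leaving out 1 library gave -0.99 to -0.70. Setd1a passed only in the block with GC correction, at -0.30 (adjusted p = 0.0469; adjusted p = 0.0913 in the block alone); leaving out 1 library gave -0.41 to -0.22. The cause of these differences was not tested. None of the 13 named Zfp genes recomputed, nor Setd1a, changed direction under any alternative run. Zfp37 has no value with a minimum of 5 CPM. Counting error limits the genes near 5 CPM most.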

Other observations

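Related zinc finger families at 5 CPM or more gave the following values. The 31 Zbtb genes, which pair a BTB domain with zinc fingers, had a median log2 change of -0.03 with 15 above 0, and 0 were called in either edgeR test. The 13 Zkscan and Zscan genes, which carry a SCAN domain, had a median of -0.05 with 5 above 0, and 0 were called. The 14 Klf and Sp genes, which encode activators and repressors with a short array of fingers, had a median of 0.05 with 10 above 0, and 0 were called. The 18 Zfp genes whose symbol has letters after the number had a median of 0.03 with 11 above 0, and 0 were called. Among the 97 tested Zfp-numbered genes under the limit, the median was 0.00 with 48 above 0, and 1 was called higher by the paired test. Of all genes, the paired test called 1.43% higher and 0.851% lower, and the unpaired test called 0% in either direction. With so few genes per family, these counts of calls are no result about the families. At an unadjusted p under 0.05, the unpaired edgeR test had 3 Zbtb genes higher and 0 lower, 0 and 1 Zkscan and Zscan genes, 1 and 0 Klf and Sp genes, and 0 and 0 of the Zfp genes with letters, against 5.5% higher and 4.51% lower of all genes tested. The paired test had 5 and 2 Zbtb genes, 0 and 2 Zkscan and Zscan genes, 2 and 0 Klf and Sp genes, and 0 and 0 of the Zfp genes with letters, against 9.94% and 9.62% of all genes.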
